A study of Mus musculus with 6 samples.

Results

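The miR-17-92 cluster is a group of microRNAs (miRNAs) cut from a single transcript on mouse chromosome 14, and it was followed here in thymus after X-irradiation. Its members were chosen by name. They are mmu-miR-17-5p, mmu-miR-17-3p, mmu-miR-18a-5p, mmu-miR-18a-3p, mmu-miR-19a-3p, mmu-miR-20a-5p, mmu-miR-20a-3p, mmu-miR-19b-3p and mmu-miR-92a-3p (the mouse prefix mmu is left out below), and all 9 of 9 were found among the 1390 mature miRNAs in the deposited count table. Mature miRNAs were counted by sequencing in whole thymus of wild-type C57BL mice aged 5 weeks, with n = 3 mice in each group. The labels give the molecule as polyA RNA and name an RNA library kit, and how short RNAs were selected is not stated there. The irradiated group was given a 6 Gy dose of X-rays (800 cGy/min, 40 cm distance), the control group none, and every thymus was taken 24 h later. Whole organs were used, so each library mixes thymocytes with epithelial, vascular and connective tissue cells.

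An miRNA gene makes a hairpin from which a short duplex is cut. Usually 1 strand of that duplex (the guide) is kept in the Argonaute protein and the other (the passenger) is mostly lost. The guide finds messenger RNAs through its seed, the bases near its 5′ end, and lowers their output. The cluster is switched on by Myc and E2F factors in dividing cells. In lymphocytes it is known for lowering the death factor Bcl2l11 (Bim) and for supporting proliferation and survival. Paralogous clusters lie on chromosome X (miR-106a to miR-363) and in an intron of the replication gene Mcm7 on chromosome 5 (miR-106b, miR-93 and miR-25).

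The mature sequences are shown because the seed sorts the members into families and because near-identity limits how reads can be assigned. They were read from the deposited table, run 5′ to 3′, and carry the seed (bases 2 to 8) in capitals. RefSeq (GRCm38.p6) holds the same sequence for 9 of the 9 members.
mmu-miR-17-5p: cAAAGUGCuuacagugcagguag
mmu-miR-20a-5p: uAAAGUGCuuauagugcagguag
mmu-miR-18a-5p: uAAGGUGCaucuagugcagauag
mmu-miR-19a-3p: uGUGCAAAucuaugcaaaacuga
mmu-miR-19b-3p: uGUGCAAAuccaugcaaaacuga
mmu-miR-92a-3p: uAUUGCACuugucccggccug
mmu-miR-17-3p: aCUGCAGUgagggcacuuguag
mmu-miR-18a-3p: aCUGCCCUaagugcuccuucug
mmu-miR-20a-3p: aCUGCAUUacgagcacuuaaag
The guides fall into 4 seed families, with miR-17-5p and miR-20a-5p sharing a seed, miR-19a-3p and miR-19b-3p sharing another, and miR-18a-5p and miR-92a-3p each having its own. Counting from 1 at the 5′ end, with the base of the first-named miRNA first, miR-19a-3p and miR-19b-3p differ by U11C. MiR-17-5p and miR-20a-5p differ by C1U and C12U.

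The closest paralogues are shown for the same reason, since each of those shown carries the seed of a member.
miR-106a-5p: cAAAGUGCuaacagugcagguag
miR-20b-5p: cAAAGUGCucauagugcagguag
miR-106b-5p: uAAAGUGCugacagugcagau
miR-93-5p: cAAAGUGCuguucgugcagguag
miR-18b-5p: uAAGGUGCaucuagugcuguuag
miR-25-3p: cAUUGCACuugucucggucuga
miR-363-3p: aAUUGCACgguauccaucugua
MiR-17-5p differs from miR-106a-5p by U10A alone, and from miR-20b-5p by U10C and C12U. MiR-18a-5p differs from miR-18b-5p by A18U and A20U. A sequencing error can therefore move a read between some of these names. The authors' treatment of mismatches is not given in the sources used here.

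All 6 hairpins lie within 836 nt, at chr14:115043671-115044506 on the plus strand of GRCm38. Their order is Mir17 (115043671 to 115043754), Mir18 (115043851 to 115043946), Mir19a (115044000 to 115044081), Mir20a (115044157 to 115044263), Mir19b-1 (115044305 to 115044391) and Mir92-1 (115044427 to 115044506). In GENCODE M21 each of the 6 falls in exon 2 of the long non-coding RNA gene Mir17hg, which spans 115042879 to 115046727. Identical copies of 2 mature miRNAs also come from chromosome X, miR-19b-3p from Mir19b-2 (52741991 to 52742013, minus strand) and miR-92a-3p from Mir92-2 (52741854 to 52741874, minus strand). Their reads do not tell the loci apart.

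Library totals ranged from 7730641 to 9287017 counts. Levels are given as CPM, counts relative to a fixed library total, scaled with trimmed-mean (TMM) factors. They carry no length term, since the members are 21 to 23 nt long and 1 read covers a whole molecule. A count of 0 allows up to 3 counts, or 0.323 to 0.388 CPM before TMM scaling, and this limit covers counting error only. The tissue label was checked against marker miRNAs. The thymocyte and lymphoid markers (5 of 5 in the table, none at 0 in any library) summed to 93842 to 158708 CPM in control and 4223 to 6968 CPM in irradiated libraries. Irradiated replicates 2 and 3 stood apart in the summed muscle markers (3 of 3 in the table), at 20113 and 13393 CPM. The sum was 602 CPM in irradiated replicate 1 and 202 to 480 CPM in control. MiR-1a-3p made up most of it, with 19374 and 13223 CPM in irradiated replicates 2 and 3. In irradiated replicates 1, 2 and 3 miR-133a-3p measured 13.8, 418 and 146 CPM. MiR-206-3p measured 61.2, 320 and 24.1 CPM there, so it did not set replicate 3 apart from replicate 1. The erythroid markers (3 of 3) summed to 604, 5027 and 1981 CPM in irradiated replicates 1, 2 and 3 and to 480 to 724 CPM in control.

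All 9 strands were lower after irradiation. The most abundant, miR-92a-3p, was 13.3-fold lower, and the least changed, miR-17-5p, was 4.09-fold lower. The test was edgeR's quasi-likelihood test over 519 miRNAs with Benjamini-Hochberg adjustment and a threshold of 0.05. By it 9 of 9 members were lower and 0 were higher, whereas 33.5% of the 519 tested miRNAs were called lower and 61.3% were called in either direction. The member median log2 fold change was −3.20, against 0.01 over all tested miRNAs. MiR-18a-3p and miR-20a-3p passed the low-count filter through the control libraries, so a lower irradiated level was part of how they entered the test. The median of −3.20 is the value of miR-20a-3p itself. Of the other members, 7 of 7 were lower, with log2 fold changes from −3.74 to −2.03. The 33.5% covers all 519 tested miRNAs, so it is not a matching share for these 7. All 3 irradiated libraries lay below all 3 controls for 9 of 9 members, as they did for 36.6% of the tested miRNAs. A fold change at or below that of the least changed member was found for 20.8% of the tested miRNAs. The authors' deposited table calls 9 of the 9 lower at an adjusted p of 0.05 (22.3% of the 741 miRNAs with an adjusted p there), with log2 fold changes from −3.67 to −1.95. Those values come from the same libraries.

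In whole tissue, fewer cells of a type and less RNA per cell cannot be told apart. Of the 5 thymocyte and lymphoid markers, 4 were lower in the same test and 0 were higher. Over all 519 tested miRNAs, 33.5% were called lower and 61.3% in either direction. The rest of that 61.3% were called higher, which is the share to set beside the marker counts below. Of the 4 epithelial markers 0 were lower and 4 higher, and their summed level was 3167 to 4006 CPM in control and 10719 to 15829 CPM in irradiated libraries. Of the 5 vascular and stromal markers 0 were lower and 3 higher. Their summed levels were 89114 to 237986 CPM in control and 203802 to 322245 CPM in irradiated libraries. Most of that sum was miR-143-3p, which was not among the 3 (edgeR adjusted p of 0.118). It measured 84137 to 232256 CPM in control and 184391 to 295634 CPM in irradiated libraries. The part of what these markers show in the levels of the cluster was not tested. With replicate 1 as the only irradiated library, a comparison added after seeing the data, member log2 fold changes ranged from −3.46 to −1.58. The member median was −2.32 in place of −3.20, but both are the values of miR-20a-3p, which had 4 counts in that library. The 7 members that did not enter the test through the controls spanned the same −3.46 to −1.58, in place of −3.74 to −2.03. That comparison assumes the lone library varies as the controls do.

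**Figure D1:**
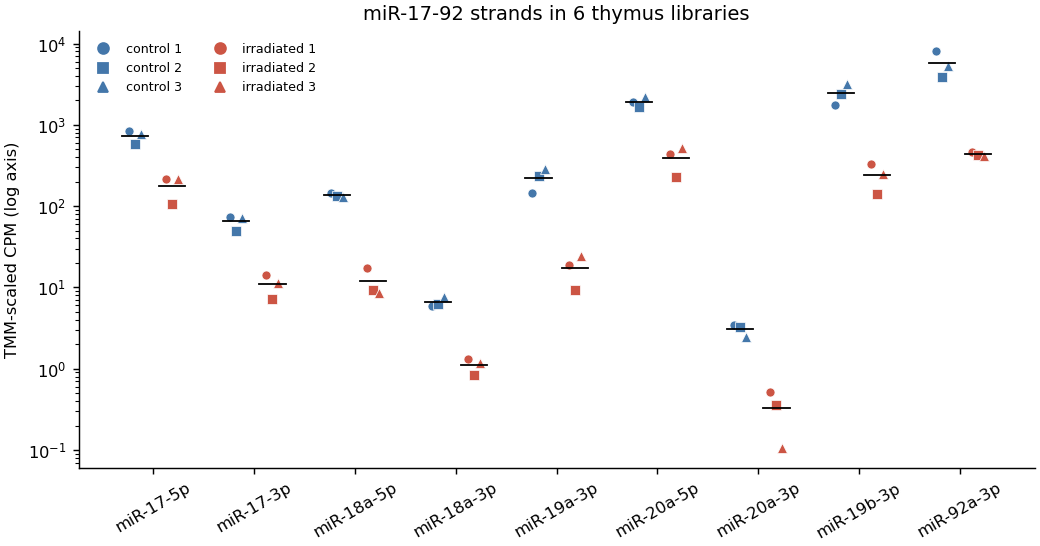
TMM-scaled CPM (log axis) of each of the 9 strands in each of the 6 libraries, with black lines at the means of 3 libraries. For each strand the 3 irradiated libraries lie below the 3 controls, and the means of miR-92a-3p are 5775 CPM in control and 434 CPM in irradiated libraries.

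MiR-17-5p founds the seed family after which the cluster is named, and known targets include the cell-cycle brake Cdkn1a (p21). It measured 838, 586 and 773 CPM in control replicates 1, 2 and 3 and 214.1, 104.9 and 218.1 CPM in irradiated replicates 1, 2 and 3. The groups did not overlap, and irradiated replicate 2 was the lowest. Its log2 fold change was −2.03 ± 0.33 (SE, n = 3 per group, edgeR adjusted p of 6.4e-04). MiR-17-3p, the other strand of the same hairpin, measured 73.2, 49.4 and 72.5 CPM in control and 14.1, 7.28 and 11.5 CPM in irradiated replicates 1, 2 and 3. It changed by −2.57 ± 0.34 (SE, edgeR adjusted p of 1.6e-04).

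MiR-20a-5p carries the same seed as miR-17-5p and lies in the Mir20a hairpin. Its levels were 1899, 1646 and 2206 CPM in control and 441, 229 and 518 CPM in irradiated replicates 1, 2 and 3. As for miR-17-5p, irradiated replicate 2 was the lowest and the groups did not overlap. The log2 fold change was −2.28 ± 0.33 (SE, edgeR adjusted p of 2.7e-04). By the fitted fold change these 2 strands of the miR-17 seed changed least of the 9, although their hairpins are not neighbours. Differences between members were not tested, and the next, miR-18a-3p, stood at −2.56 ± 0.36 (SE). MiR-20a-3p, the passenger of miR-20a-5p, was near the detection limit. It had 24, 35 and 20 counts in control and 4, 3 and 1 in irradiated replicates 1, 2 and 3. Its log2 fold change was −3.20 ± 0.53 (SE, edgeR adjusted p of 6.6e-04), and −2.32 with replicate 1 as the only irradiated library. The pooled ratio of control to irradiated was 9.69 with an exact 95% counting interval from 4.69 to 23.2.

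MiR-18a-5p is known to target the matrix gene Ccn2 (Ctgf). TMM-scaled control levels lay close together at 145.05, 132.4 and 129.2 CPM, whereas the counts were 1017, 1427 and 1053. Irradiated replicates 1, 2 and 3 measured 17.5, 9.43 and 8.60 CPM. Irradiated replicate 1 was the highest of its group and below every control. MiR-18a-5p changed by −3.52 ± 0.35 (SE, edgeR adjusted p of 4.3e-05), and by −2.76 with replicate 1 as the only irradiated library. That last fit holds no spread between irradiated mice. Over the alternatives the edgeR adjusted p ranged from 4.8e-19 (no low-count filter) to 9.1e-04 (replicate block). The passenger miR-18a-3p had 41, 67 and 62 counts in control and 10, 7 and 11 in irradiated replicates 1, 2 and 3. Its log2 fold change was −2.56 ± 0.36 (SE, edgeR adjusted p of 2.5e-04).

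The miR-19 pair is the part of the cluster best known for driving Myc-induced lymphoma. MiR-19a-3p, made only on chromosome 14, measured 145.3, 236.4 and 287.4 CPM in control and 18.8, 9.31 and 24.4 CPM in irradiated replicates 1, 2 and 3. Control replicate 1 was the lowest control, and the groups did not overlap. The log2 fold change was −3.67 ± 0.43 (SE, edgeR adjusted p of 8.4e-05). MiR-19b-3p, which also comes from chromosome X, measured 1731, 2389 and 3184 CPM in control and 330, 140 and 247 CPM in irradiated replicates 1, 2 and 3. Control replicate 1 was again the lowest control. MiR-19b-3p changed by −3.35 ± 0.38 (SE, edgeR adjusted p of 7.4e-05), and by −2.67 with replicate 1 as the only irradiated library. Its edgeR adjusted p over the alternatives ranged from 8.8e-20 (no low-count filter) to 0.0018 (replicate block).

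MiR-92a-3p has a seed unlike the rest and shares it with miR-25-3p of the Mcm7 cluster. It measured 8078, 3914 and 5332 CPM in control replicates 1, 2 and 3, a coefficient of variation of 36.7%. Among TMM-scaled controls that was the widest relative spread of any member. The ranking depends on the control TMM factors of 0.823, 1.39 and 0.989. Control counts were 56640, 42186 and 43462 for miR-92a-3p and, relatively wider, 1019, 2548 and 2343 for miR-19a-3p. In irradiated replicates 1, 2 and 3 miR-92a-3p measured 461, 427 and 413 CPM, the narrowest spread of any member there (5.72%). Irradiated replicate 2 was therefore not low for miR-92a-3p, while it was the lowest library for 6 of the 9 members. The log2 fold change was −3.74 ± 0.32 (SE, edgeR adjusted p of 1.9e-05).

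**Figure D2:**
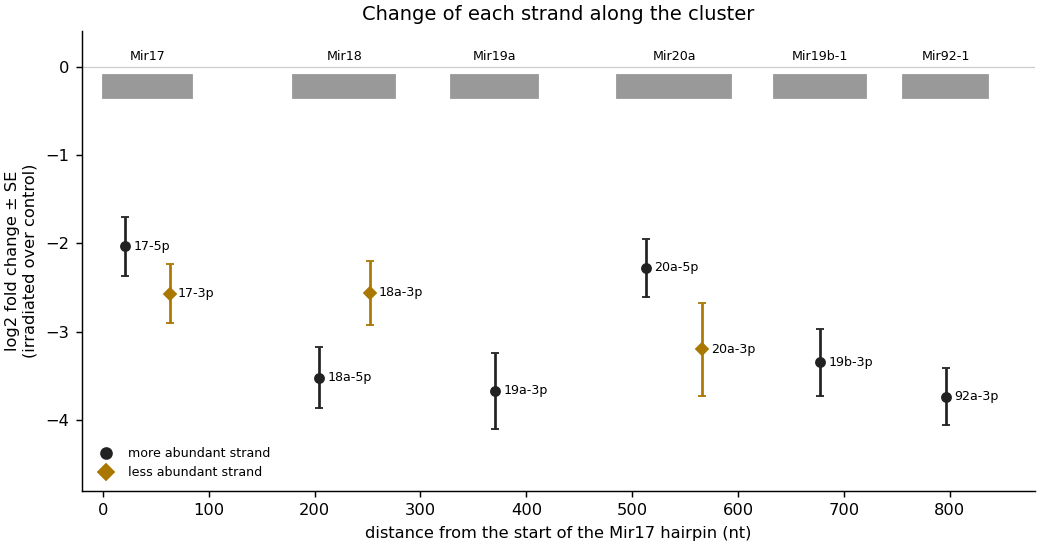
Log2 fold change (irradiated over control, points, with SE as bars) of each strand, placed at its hairpin along the cluster (x axis in nt from the start of the Mir17 hairpin, grey boxes to scale). The least changed were miR-17-5p (−2.03) and miR-20a-5p (−2.28), and miR-92a-3p in the last hairpin changed most (−3.74).

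In control thymus miR-92a-3p was followed by miR-19b-3p, miR-20a-5p, miR-17-5p, miR-19a-3p, miR-18a-5p, miR-17-3p, miR-18a-3p and miR-20a-3p. Only the neighbours miR-19b-3p and miR-20a-5p overlapped in their ranges over libraries. In irradiated thymus miR-20a-5p came second, and its range overlapped that of miR-92a-3p (means of 396 and 434 CPM). MiR-20a-5p and miR-19b-3p, miR-19b-3p and miR-17-5p, miR-19a-3p and miR-18a-5p, and miR-18a-5p and miR-17-3p overlapped as well. Within libraries, miR-20a-5p was above miR-19b-3p, and miR-19b-3p above miR-17-5p, in 3 of 3 irradiated replicates. The other overlapping pairs kept their order in 2 of 3. Among all miRNAs ranked by mean CPM, miR-92a-3p was at place 24 in control and 85 in irradiated thymus. MiR-20a-5p was at 48 and 89, and miR-17-5p at 70 and 123.

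The 9 members together held 1.06%, 1.25% and 1.19% of all counts in control replicates 1, 2 and 3 and 0.133%, 0.0911% and 0.146% in irradiated replicates 1, 2 and 3. The means were 1.17% ± 0.0951 and 0.123% ± 0.0287 (SD, n = 3 per group, exact two-sided permutation p of 0.1, and 3 libraries against 3 cannot give a smaller one). The mean share was thus 9.46-fold lower in irradiated libraries. For the 7 members made only on chromosome 14 the shares were 0.324% ± 0.0602 and 0.0591% ± 0.0221 (SD, n = 3, exact permutation p of 0.1), which is 5.47-fold lower. Most of these counts belong to miR-20a-5p and miR-17-5p, which were 4.84- and 4.09-fold lower by mean CPM. By the same measure miR-19a-3p and miR-18a-5p were 12.7- and 11.5-fold lower, and the rest of the 7 were 5.94- to 9.25-fold lower.

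The share of the cluster's counts held by each strand is given as a description, with no test. Control and irradiated libraries did not overlap for 4 of the 9 shares, those of miR-17-5p, miR-17-3p, miR-18a-3p and miR-20a-5p, and overlapped for the other 5. MiR-92a-3p held 62.5%, 43.7% and 44.5% of the cluster's counts in control and 30.8%, 46.0% and 28.6% in irradiated replicates 1, 2 and 3, so the groups overlapped. MiR-17-5p held 6.49% ± 0.0462 of them in control against 13.6% ± 2.01 after irradiation (SD, n = 3), with no overlap. MiR-20a-5p held 17.2% ± 2.12 and 30.01% ± 5.67 (SD, n = 3), also with no overlap. The share of miR-19b-3p was 13.4%, 26.7% and 26.5% in control and 22.1%, 15.1% and 17.1% in irradiated libraries, which overlapped. These shares sum to a fixed total, so a lower share of 1 strand raises the others.

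**Figure D3:**
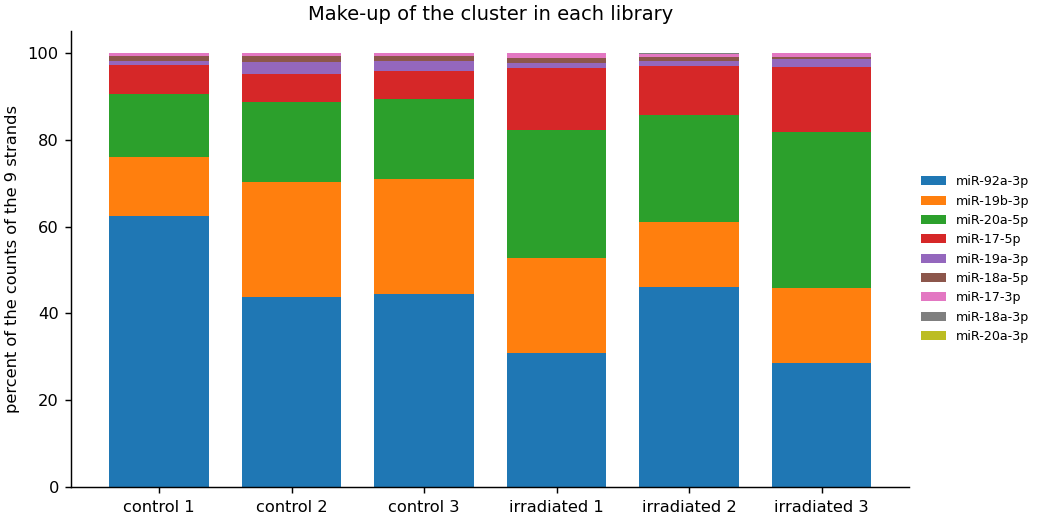
Stacked bars of the percent of the cluster's counts held by each of the 9 strands, 1 bar per library. MiR-17-5p and miR-20a-5p take larger shares in each irradiated library than in any control, with means of 13.6% and 30.01% against 6.49% and 17.2%.

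Ratios between strands within a library do not depend on library scaling, and 5 such ratios went through the exact permutation test (two-sided), with adjustment over the 5. No such test can go below 0.1. Cutting of 1 hairpin gives both of its strands, so the ratio of guide to passenger compares products of the same precursor. For miR-17 the guide was 11.4, 11.9 and 10.7 times as abundant as the passenger in control and 15.1, 14.3 and 18.9 times in irradiated replicates 1, 2 and 3. The groups did not overlap. The log2 ratio was higher in irradiated libraries by 0.50 (exact permutation p of 0.1, adjusted 0.167).

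For miR-18a the order was the opposite. The guide was 24.5, 21.1 and 16.9 times as abundant as the passenger in control and 12.8, 10.6 and 7.09 times in irradiated replicates 1, 2 and 3, again without overlap. The log2 ratio differed by −1.06 (exact permutation p of 0.1, adjusted 0.167). The miR-18a passenger was at 7 to 11 counts in irradiated libraries, which limits the precision. Whether the shifts of miR-17 and miR-18a differ from each other was not tested. For miR-20a the ratio rests on 1 to 4 passenger counts in irradiated libraries. The groups overlapped (exact permutation p of 0.5, adjusted 0.5), and the difference of 0.83 became −0.33 with a pseudocount of 5.

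MiR-92a-3p was compared with miR-17-5p because the first has a second gene on chromosome X and the second does not. It was 9.64, 6.68 and 6.89 times as abundant in control and 2.15, 4.07 and 1.89 times in irradiated replicates 1, 2 and 3. The log2 ratio differed by −1.58 with no overlap (exact permutation p of 0.1, adjusted 0.167). The size of this shift depends on the reference, since miR-17-5p was the least changed member (log2 fold change −2.03). MiR-19a-3p and miR-18a-5p, also made only on chromosome 14, changed by −3.67 and −3.52, against −3.74 for miR-92a-3p. The other members made only there ranged from −3.20 to −2.28. The part of the second gene was not tested. MiR-19b-3p likewise has a second gene on chromosome X, and miR-19a-3p does not. Their ratio was 11.9, 10.1 and 11.1 in control and 17.5, 14.9 and 10.1 in irradiated libraries, which overlapped (log2 difference 0.33, exact permutation p of 0.4, adjusted 0.5).

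**Figure D4:**
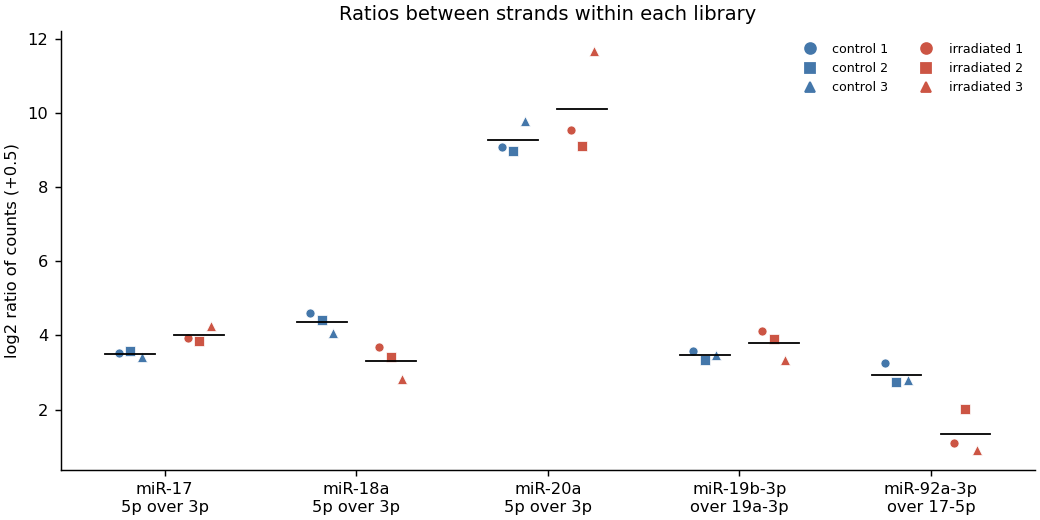
Log2 ratio of counts (0.5 added to each count) between pairs of strands in each library, with black lines at the means of 3 libraries. The control and irradiated libraries separate for miR-17, miR-18a and miR-92a-3p over miR-17-5p, with differences of 0.50, −1.06 and −1.58, and overlap for miR-20a and miR-19b-3p over miR-19a-3p.

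Passenger strands that differ between the loci report on 1 locus each. From chromosome 14, miR-92a-1-5p had 50, 88 and 63 counts in control and 24, 4 and 9 in irradiated replicates 1, 2 and 3. It was lower after irradiation, with a log2 fold change of −2.35 ± 0.55 (SE, edgeR adjusted p of 0.0048), though it passed the low-count filter through the control libraries. From chromosome X, miR-92a-2-5p had 6, 18 and 17 counts in control and 1, 0 and 0 in irradiated libraries. It was not tested because of its low counts, and the pooled ratio of control to irradiated was 40.2 (exact 95% counting interval 6.83 to 1628). The corresponding ratio of miR-92a-1-5p was 5.33 (3.74 to 7.79). These intervals cover counting error and not the spread between mice.

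The strands of the miR-19b genes were scarcer. MiR-19b-1-5p from chromosome 14 had 8, 23 and 15 counts in control and 1, 0 and 0 in irradiated libraries, a pooled ratio of 45.2 (7.71 to 1822). MiR-19b-2-5p from chromosome X had 1, 3 and 1 counts in control and 0 in every irradiated library, too few for a fold. MiR-19a-5p had 2, 5 and 6 counts in control and 0, 1 and 0 in irradiated libraries, with a pooled ratio of 12.8 (1.92 to 542).

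Of the paralogous clusters 14 strands were listed, and 9 of these have the seed of a member. Of these 13 were tested, 13 were lower and 0 were higher, beside the 33.5% of all tested miRNAs called lower. Strands above the low-count limit in all 6 libraries numbered 9, and 9 were lower. The 33.5% covers all tested miRNAs, so it is not a matching share for these 9. In the Mcm7 cluster log2 fold changes ranged from −3.33 to −1.39, with a median of −2.68. Both miR-106b strands came from 1 hairpin. MiR-106b-5p changed by −2.72 ± 0.32 (SE, edgeR adjusted p of 8.4e-05), from 864 to 131 CPM, and miR-106b-3p by −1.39 ± 0.27 (SE, edgeR adjusted p of 0.0017), from 454 to 174 CPM. In the X-linked cluster the tested strands ranged from −6.82 to −4.15, with a median of −4.86. MiR-18b-5p, miR-18b-3p and miR-20b-3p passed the low-count filter through the control libraries, as did miR-25-5p of the Mcm7 cluster. The 4 X-linked strands above the limit in all 6 libraries ranged from −4.86 to −4.15. The lowest tested strand, miR-18b-3p, had 16, 12 and 13 counts in control and 0 in every irradiated library. This is at least 4.67-fold lower with 3 counts per library as the floor. MiR-20b-3p had 31, 42 and 45 counts in control and 0, 3 and 1 in irradiated replicates 1, 2 and 3, a pooled ratio of 29.0 (exact 95% counting interval 11.0 to 108).

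Summed over a seed, the miR-17 family (6 miRNAs in the table) measured 8104, 6771 and 8682 CPM in control and 1615, 796 and 1347 CPM in irradiated replicates 1, 2 and 3. The mean was 6.27-fold lower (exact permutation p of 0.1). The miR-18 family (2 miRNAs) was at 333 ± 9.29 and 17.2 ± 11.0 CPM (SD, n = 3), 19.4-fold lower (exact permutation p of 0.1). The miR-19 family, which is miR-19a-3p and miR-19b-3p alone, was 10.4-fold lower, at 2658 ± 798 and 257 ± 101 CPM (SD, n = 3, exact permutation p of 0.1). The miR-92 family (5 miRNAs) was 10.5-fold lower, at 20585 ± 4508 and 1961 ± 248 CPM (SD, n = 3, exact permutation p of 0.1). Its other members include miR-32-5p, which changed by −1.23 ± 0.26 (SE, edgeR adjusted p of 0.0029), and miR-92b-3p, which did not pass (1.42 ± 0.66, edgeR adjusted p of 0.0849) and was at 29.8 CPM in irradiated replicate 2 against 5.61 and 5.52 CPM in replicates 1 and 3.

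The chromosome 14 cluster held a larger share of the miR-17 and miR-18 families in every irradiated library than in any control. MiR-17-5p and miR-20a-5p held 33.8%, 33.0% and 34.3% of the miR-17 family's counts in control and 40.5%, 41.9% and 54.7% in irradiated replicates 1, 2 and 3. The X-linked pair held 16.0% ± 0.326 and 3.67% ± 1.11 of it (SD, n = 3), and the Mcm7 pair 50.3% ± 0.573 and 50.6% ± 8.09. MiR-18a-5p held 43.97%, 40.7% and 37.7% of the miR-18 family in control and 58.5%, 91.9% and 75.7% in irradiated libraries, with miR-18b-5p holding the rest. For both the groups did not overlap (exact permutation p of 0.1, adjusted 0.15 over 9 such shares). MiR-92a-3p held 27.5% ± 4.06 and 22.5% ± 4.34 of the miR-92 family (SD, n = 3), which overlapped (exact permutation p of 0.3, adjusted 0.386), and miR-25-3p held 68.8% ± 3.01 and 71.1% ± 5.07.

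**Figure D5:**
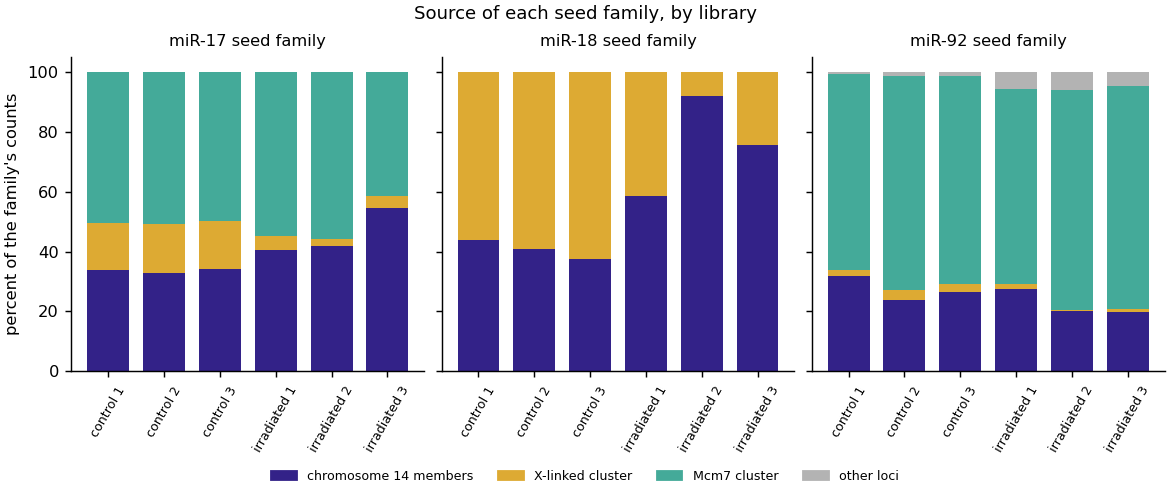
Stacked bars of the percent of each seed family's counts by source, 1 bar per library (miR-92a-3p is drawn with chromosome 14 although chromosome X makes it too). The X-linked part of the miR-17 and miR-18 families is smaller in each irradiated library than in any control, with means of 16.0% and 59.2% in control and 3.67% and 24.6% in irradiated libraries.

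The miRNAs outside these families whose profile over the 6 libraries was most like the cluster's were found by the root-mean-square difference of log2 levels from the members' mean, each taken relative to its own control mean. The members' mean profile stood at −2.57, −3.35 and −2.85 in irradiated replicates 1, 2 and 3. MiR-466e-5p was the nearest (difference 0.19), followed by miR-142a-3p and miR-142b (0.26 each), miR-466b-5p (0.26) and miR-181c-3p (0.29). The members themselves differed from their mean by 0.28 to 0.67, and the median tested miRNA by 2.11. MiR-142a-3p and miR-142b had the same count in every library, so they are 1 measurement. Over 6 libraries in 2 groups this measure mostly reads the size of the change, which was −2.87 for miR-466e-5p and −2.86 for miR-142a-3p on the log2 scale.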

How the data were processed

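The libraries came from 6 thymuses, 3 per group. Per the file headers, the authors deposited a whole-number count for every mature miRNA in each library. The authors' TPM values are these counts scaled to a fixed total with no length term and were not used. The authors' deposited table also gives a log2 fold change, p-value and adjusted p-value of irradiated over control, and the submitters' processing notes name DESeq2 1.10.1. The aligner and build are not given in these sources. A further 6 count columns outside the labels were not used here.

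Counts were fitted with edgeR 4.0.16 in R 4.3.3 (TMM factors of 0.823 to 1.39, filterByExpr at its defaults, about 1.17 CPM in 3 libraries, robust quasi-likelihood test) over 519 miRNAs, after tests on simulated data. SE is the fold change divided by the square root of F. Strand ratios had 0.5 added to each count. Shares, sums and ratios had exact permutation tests, two-sided. No replicate was a copy of another, and p-values measure the spread between these samples. The members, lists and markers were chosen with earlier results of these data known. Named miRNAs were the members, the listed paralogue and locus-specific strands, others with a member's seed, and the 5 most like the cluster. Alternatives were other scaling, no filter, DESeq2 1.42.0, limma-voom (limma 3.58.1), the replicate block, a pseudocount of 5, other share definitions and leaving out each library. Leaving out irradiated replicates 2 and 3 together was added after seeing the data.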

Additional observations from a re-analysis of the deposited data

How the results depend on the processing

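The count of members called lower was 9 under each of 14 alternatives, the fit with the replicate block included (9 of 9). The paralogue count was 13 under each, except 14 with no low-count filter. Each member kept its direction and its side of the threshold under each of its 14 alternatives. Relative to a median log2 change of all tested miRNAs of 0.01, median-of-ratios factors gave 0.12, library totals −0.13 and upper-quartile factors 0.44. The member median under these was −3.10, −3.36 and −2.78, each the value of miR-20a-3p. Same-numbered libraries shared only a number (correlations of deviations 0.10, −0.02 and 0.23), and not each library correlated best with its own number. Without irradiated replicates 2 and 3 the member median was −2.32, again the value of miR-20a-3p. The fold moved there by over 1.5 times for miR-20a-3p (−2.32), miR-18a-5p (−2.76) and miR-19b-3p (−2.67). That fit takes its spread from the controls alone. The miR-20a guide over passenger difference of 0.83 reversed to −0.33 with a pseudocount of 5, and ranged from 0.05 to 1.33 with 1 library left out. The value of 0.05 was without irradiated replicate 3. Depth limits the passenger strands, which had 1 to 11 counts in irradiated libraries for miR-18a and miR-20a. With 3 libraries per group no exact test of a share or ratio could pass.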
